A study of Mus musculus with 13 samples.

Results

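The genes described here encode the kinase mTOR, the proteins that form its complexes and the regulators that act directly upstream of it. There are 10 of them (Mtor, Mlst8, Rptor, Akt1s1, Rictor, Deptor, Tsc1, Tsc2, Rheb and Ddit4), out of 23366 genes measured by RNA sequencing of whole pancreas. They were chosen by name for their place in the pathway, with earlier results of these data known. The 13 mice were females of the reprogrammable strain i4F-B, in which every group, the controls included, carries a doxycycline-inducible transgene for OCT4, SOX2, KLF4 and MYC (OSKM) inserted in the Pparg gene. The young group held 4 mice of 13 weeks and the old group 5 mice of 55 weeks, and neither received doxycycline. The old-OSKM group held 4 mice that had doxycycline for 7 days from the age of 55 weeks and then 2 weeks of recovery, so that the labels give 58 weeks at collection. No group received doxycycline without OSKM or was left untreated to 58 weeks, so that the effects of the factors, of doxycycline and of the additional weeks cannot be told apart. The values are log2 RPKM (reads scaled by transcript length and by library total) as deposited, with 1 library per mouse. The paper states the reads obtained per sample as a single figure for all samples, and the separate read total of each library is unknown.

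mTOR is a protein kinase that couples growth to nutrients, energy and growth factors, and it works in a pair of complexes. In mTORC1 the subunit raptor presents substrates whose phosphorylation promotes protein synthesis and restrains autophagy. In mTORC2 the subunit rictor directs the kinase to AKT and related kinases. The TSC complex holds mTORC1 back by switching off the small GTPase Rheb, which is mTORC1's direct activator on the lysosome. The acinar cell, which makes up most of the pancreas, produces digestive enzymes at a very high rate and depends on this pathway for its response to feeding. Much of this regulation is by phosphorylation, which RNA levels do not measure.

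The stretches of DNA upstream of 4 of these genes are shown because the induced cassette encodes DNA-binding factors, and because these stretches hold letters that such factors, or the stress signals to which Ddit4 responds, are known to use. They come from RefSeq on GRCm38.p6, the assembly also called mm10, where 9 of the 10 genes have an entry of 300 bases (250 before and 50 after the start of a transcript). The bases before that start lie wholly (Akt1s1), mostly (Tsc1) or partly (Mlst8, Rictor and Tsc2) inside the span given for the gene further on, since that span begins at an earlier start. Capitals mark the matched letters, searched on both strands. Rheb, at chr5:24842440-24842469 on the minus strand, holds the E-box CACGTG, which MYC binds. In GENCODE the Rheb gene begins at 24842624 on this strand, so that this stretch lies upstream of the RefSeq start only. Mtor, at chr4:148448448-148448477 on the plus strand, and Rictor, at chr15:6708274-6708303 on the plus strand, hold the GC box GGGCGGGG, here read as CCCCGCCC in Mtor, to which KLF and SP proteins bind. Ddit4, at chr10:59951835-59952020 on the minus strand, holds a GC box, the core ACGTGC of the site used by hypoxia-inducible factors, and 2 CCAAT boxes read as ATTGG.
Rheb: gccgcgcgcggtCACGTGggtgtgttgttg
Mtor: atttgaacaatCCCCGCCCtcgagaagccg
Rictor: tccgtgccgagGGGCGGGGgcgctgccgcg
Ddit4: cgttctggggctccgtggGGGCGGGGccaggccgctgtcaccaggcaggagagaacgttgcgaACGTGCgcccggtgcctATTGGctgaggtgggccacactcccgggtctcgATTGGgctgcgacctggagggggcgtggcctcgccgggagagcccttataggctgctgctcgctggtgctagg

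Among all 32851 promoter entries of this length, 7.15% hold CACGTG, 17.6% hold GGGCGGGG, 5.91% hold ACGTGC and 37.4% hold CCAAT. Among the 9 entries, CACGTG occurred in Rheb alone, ACGTGC in Ddit4 alone, and both GGGCGGGG and CCAAT in Mtor, Rictor and Ddit4. The octamer ATGCAAAT, bound by OCT proteins, was in none of the 9 entries and in 1.74% of all promoters. The SOX letters CATTGTT were in none of the 9 and in 3.78% of all. Other letters searched for were also in none of the 9. These were the KLF letters GGGTGTGG (3.56% of all promoters) and the glucocorticoid letters AGAACA (19.0%). The CRE letters TGACGTCA (1.79%) and the TATA box TATAAA (13.6%) were absent from the 9 as well. A match of letters is a description of the sequence and was not measured as binding in these mice.

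The 10 acinar markers that check the label pancreas were all measured, and 8 that encode secreted proteins had means of 9.07 (Zg16) to 11.1 (Ctrb1) on the log2 scale. The summed RPKM of the 10, 10827 to 11544 in the 13 mice, can vary little by construction, since quantile normalization fixes the values of the top ranks, and Ctrb1 and Cela2a read the same in each group mean. The acinar transcription factor Ptf1a averaged 2.76 in young, 2.83 in old and 2.50 in old-OSKM mice. Bhlha15, another such factor, averaged 3.69, 3.71 and 3.61 in the same order. A single library stood apart in the share of genes at an extreme. Among 8298 genes with a mean log2 RPKM above 0 and no ties, old-OSKM mouse 4 was the highest or the lowest of the 13 mice in 60.2%, while each of the other mice was so in 7.27% to 19.6%. The same mouse had the lowest acinar sum and a Ptf1a level of 1.74, while its Bhlha15 level of 3.79 was above each group mean. Its sums were the highest of the 13 for islet markers (507 against at most 393 in untreated mice), fibroblast and stellate markers (72.8 against at most 53.8) and endothelial markers (19.0 against at most 15.7). So were its sums for duct markers (49.5 against at most 47.3), erythroid markers (104 against at most 68.2) and adipocyte markers (14.2 against at most 9.07). Members did not all move alike. In the duct list Muc1 (3.27) and Krt19 (1.80) were below the young and old means, and the other members were above them. Pdx1 (0.79) of the islet list and Hbb-bs (0.91) of the erythroid list also lay below both of those means. Of the other lists, its macrophage sum was 26.1, above every untreated mouse but not the highest of its group, and its B and plasma cell (6.58), T cell (1.85) and hepatocyte (5.87) sums lay inside the range of the other mice. The hepatocyte sum reached 63.1 in a young mouse, against a young median of 4.18 and at most 6.64 in old mice, and the cause was not tested. In bulk tissue, fewer cells of a type and less RNA per cell cannot be told apart. The differences of the 10 genes between old-OSKM and old mice are therefore given with and without old-OSKM mouse 4. Some marker sums also separated whole groups. The fibroblast and stellate sum was 20.1 to 26.0 in old mice, below both young (26.9 to 53.8) and old-OSKM mice (26.2 to 72.8). The B and plasma cell sum was 0.850 to 2.61 in young mice, below both old (2.71 to 8.19) and old-OSKM mice (3.71 to 13.5), and the T cell sum was 0.695 to 1.007 in young and 1.012 to 6.11 in old-OSKM mice, without overlap. These shifts move with the comparisons that follow, and their part in them was not tested.

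The 10 genes spanned low to moderate levels in the pancreas. Deptor, whose product binds and inhibits mTOR in both complexes, was the highest, with a mean log2 RPKM of 3.39 over 13 mice (10.5 RPKM as a geometric mean), above 98.2% of all genes. Rheb followed at 2.36, and was below Deptor in 13 of 13 mice by a mean of 1.02 on the log2 scale. Tsc2 (1.86) and Akt1s1 (1.82) came next and were not separated, since Tsc2 was the higher in only 8 of 13 mice, with a difference of 0.04 ± 0.11 (SD). Below them came Ddit4 (1.27), Mtor (1.08), Rptor (0.84), Rictor (0.50) and Tsc1 (0.32), and each of these neighbours kept its order in at least 12 of 13 mice. Mlst8 was the lowest, at -0.70 (0.614 RPKM), and was also the most variable, with an SD of 0.31 over 13 mice against 0.08 for Rptor and 0.09 for Deptor. Transcripts of the scaffold of mTORC1 thus stood above those of mTORC2's scaffold in every mouse, with Rptor minus Rictor at 0.35 ± 0.12 (SD, n = 4) in young, 0.32 ± 0.14 (n = 5) in old and 0.37 ± 0.16 (n = 4) in old-OSKM mice. Within the TSC complex, Tsc2 exceeded Tsc1 by 1.64 ± 0.12 in young, 1.49 ± 0.16 in old and 1.497 ± 0.34 in old-OSKM mice, again with the same order in 13 of 13.

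**Figure D1:**
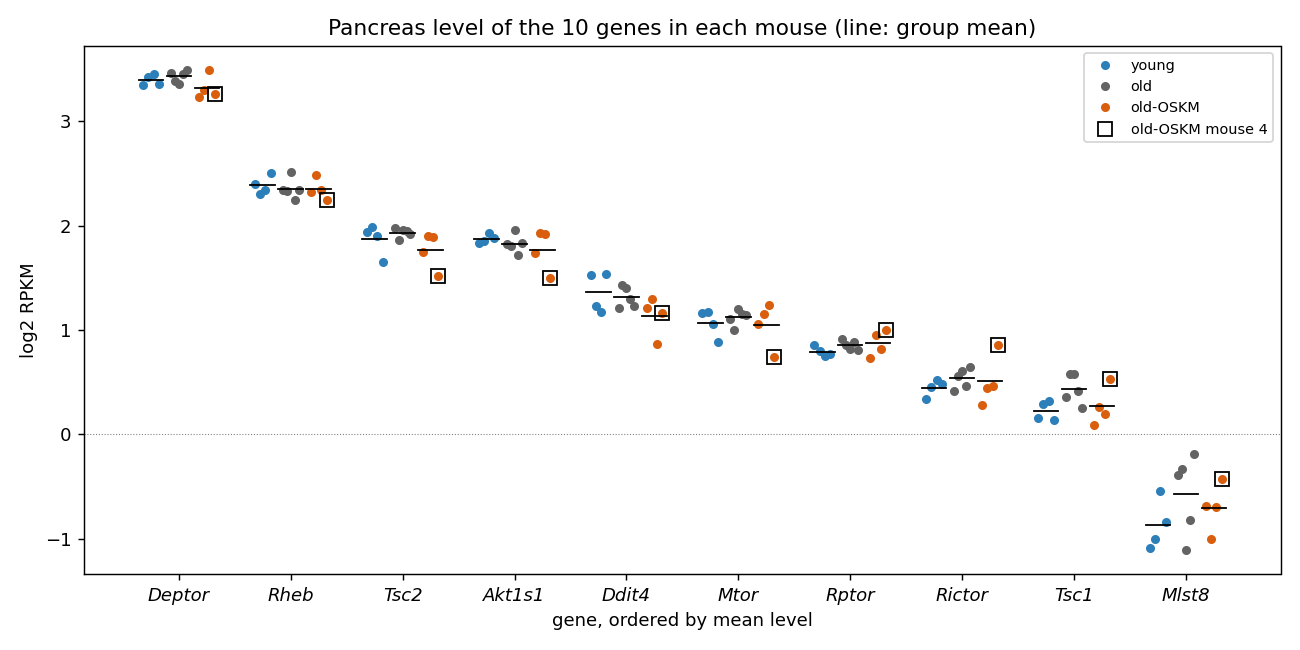
Log2 RPKM (vertical axis) of the 10 genes, ordered by mean level, in 4 young, 5 old and 4 old-OSKM mice; each point is 1 mouse, lines are group means, and open squares mark old-OSKM mouse 4. The order of the genes, from Deptor at 3.39 to Mlst8 at -0.70, spans far more than the distance between groups within any gene.

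Whether ageing or a cycle of OSKM moved any of these genes was tested with limma over all 23366 genes, with the 3 groups in a single fit. To be called, a gene needed more than a 1.5-fold change together with an unadjusted p under 0.01. None of the 10 genes was called in any of the 3 comparisons, and none had a Benjamini-Hochberg adjusted p under 0.05 over all genes. At an unadjusted p under 0.05 the count was 1 (Tsc1) in old against young mice, 0 in old-OSKM against old mice and 0 in old-OSKM against young mice. For all genes, the share called was 0.886% in old against young, 0.753% in old-OSKM against old and 0.625% in old-OSKM against young. The shares with an adjusted p under 0.05 were 0.0813%, 0.00428% and 0.0428%, and those with an unadjusted p under 0.05 were 5.52%, 8.07% and 5.07%, in the same order. None of the 10 genes had groups that did not overlap, which 2.71%, 1.73% and 1.90% of all genes had.

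The intervals were narrow enough to bound these differences. In old against young mice, the 95% interval of the difference lay within a 1.5-fold change either way (0.58 on the log2 scale) for 9 of the 10 genes, and it did so for 10 in old-OSKM against old and for 9 in old-OSKM against young mice. Mlst8 was the exception in both of the comparisons with young mice. Of all genes, 67.9%, 66.3% and 65.9% had such intervals, and of the 8410 genes with a mean log2 RPKM above 0 the shares were 88.8%, 85.9% and 86.7%. The counts for the 10 genes therefore lie near those of other genes at these levels. These intervals cover the spread between mice and assume limma's moderated variance.

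**Figure D2:**
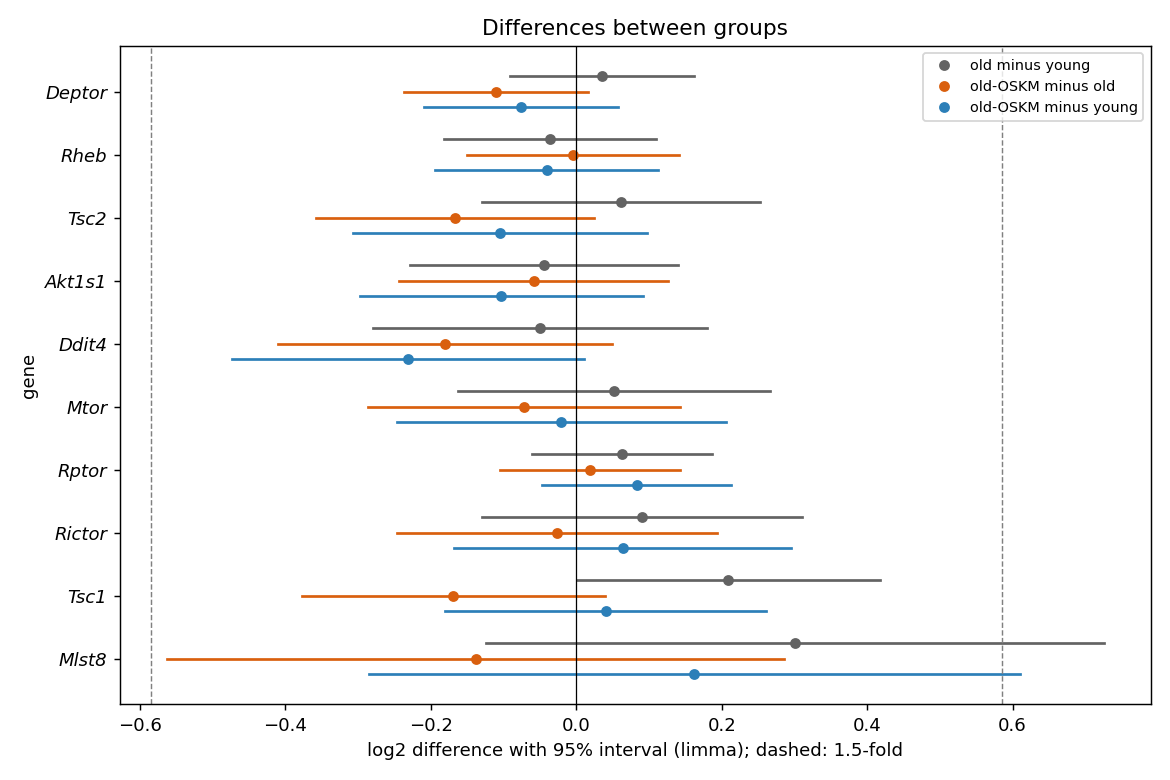
Log2 differences (horizontal axis) with 95% intervals from limma for the 10 genes in the 3 comparisons, coloured as in the key; dashed lines mark a 1.5-fold change. Every interval lies between the dashed lines except those of Mlst8 against young mice, and the interval of Tsc1 in old minus young just clears 0.

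Mtor, the catalytic subunit of both complexes (chr4:148448582-148557685, plus strand), was nearly level across age. The young mice had log2 RPKM of 1.16, 1.17, 1.06 and 0.88, the old mice 1.10, 1.00, 1.20, 1.15 and 1.15, and the old-OSKM mice 1.06, 1.16, 1.24 and 0.74. The ranges overlapped, and the old-OSKM group held both the highest and the lowest of the 13 values. The log2 difference was 0.05 (SE 0.10) in old minus young and -0.07 (SE 0.10) in old-OSKM minus old, with limma adjusted p = 1.0 and 0.720. Without old-OSKM mouse 4, the lowest, old-OSKM minus old came to 0.03 (SE 0.07), of the opposite sign.

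Mlst8, which encodes the other subunit shared by the complexes (chr17:24473550-24479114, minus strand), scattered widely within every group. Its values were -1.09, -1.001, -0.54 and -0.84 in young mice, -0.39, -0.33, -1.11, -0.82 and -0.19 in old mice, and -0.69, -1.01, -0.70 and -0.43 in old-OSKM mice. Old mice thus held both the highest and the lowest values, and their mean exceeded that of young mice by 0.30 (SE 0.19, limma adjusted p = 1.0). With the 95% interval of this fold change running from 0.918 to 1.65, Mlst8 was the gene for which the data bound the age difference least. With each mouse left out it ranged from 0.21 (without old mouse 5, the highest) to 0.44 (without old mouse 3, the lowest). The unadjusted p was under 0.05 without old mouse 3 and with the covariate for the run of identifiers (0.42). That covariate sets young mice 3 and 4 and old mouse 5, which have the highest sample identifiers, apart from the other mice. Old-OSKM minus old was -0.14 (SE 0.19) with all mice and -0.23 (SE 0.21) without old-OSKM mouse 4, ranged from -0.27 to -0.04 with each mouse left out, and was -0.06 with that covariate. Exons of Bricd5 on the opposite strand share 997 bases with Mlst8, 22.5% of its exon bases, and since use of strand in the counting is not stated, reads from the overlap cannot be told apart.

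Rptor, the mTORC1 scaffold raptor (chr11:119602905-119899591, plus strand), was among the steadiest of the 10. It read 0.85, 0.79, 0.75 and 0.77 in young mice, 0.91, 0.85, 0.82, 0.88 and 0.81 in old mice, and 0.73, 0.95, 0.81 and 1.00 in old-OSKM mice. The spread was widest in the old-OSKM group (SD 0.12 against 0.04 in each of the other groups), which again held the highest and the lowest mouse. Rptor was the only one of the 10 with a higher mean in old-OSKM than in old mice, by 0.02 (SE 0.06), and without old-OSKM mouse 4 the difference was -0.02.

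Akt1s1, which encodes PRAS40, an inhibitory subunit of mTORC1 that AKT releases by phosphorylation (chr7:44849224-44855421, plus strand), had values of 1.83, 1.85, 1.93 and 1.88 in young and 1.82, 1.80, 1.96, 1.72 and 1.83 in old mice. Old-OSKM mice gave 1.73, 1.93, 1.92 and 1.497. Mice 1 to 3 of this group lay within the range of the old mice and mouse 4 lay below all others. The log2 difference of old-OSKM minus old mice was -0.06 (SE 0.08) with mouse 4 and 0.03 (SE 0.06) without it.

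Rictor, the scaffold of mTORC2 (chr15:6708349-6800401, plus strand), had a group mean that rested on a single mouse. Young mice had 0.33, 0.45, 0.52 and 0.48, old mice 0.41, 0.56, 0.61, 0.47 and 0.64, and old-OSKM mice 0.28, 0.45, 0.46 and 0.85. Mouse 4 was the highest of the 13 and mouse 1 the lowest, so that the group mean of 0.51 lay where no old-OSKM mouse did. With all mice the log2 difference of old-OSKM minus old was -0.03 (SE 0.10, limma adjusted p = 0.906). Without mouse 4 it was -0.14 (SE 0.07, limma adjusted p = 0.801).

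Deptor (chr15:55112317-55259273, plus strand) varied little. The values were 3.35, 3.42, 3.46 and 3.36 in young, 3.46, 3.39, 3.36, 3.46 and 3.49 in old, and 3.23, 3.30, 3.49 and 3.26 in old-OSKM mice. Of the old-OSKM mice, 3 lay below every untreated mouse, and mouse 3 was the highest of the 13. The log2 difference of old-OSKM minus old was -0.11 (SE 0.06, 95% interval -0.24 to 0.02, limma adjusted p = 0.590), and -0.09 (SE 0.06) without mouse 4. Without mouse 3 it was -0.17 (unadjusted p under 0.01, limma adjusted p = 0.179), the lowest p that any of the 10 genes reached in any of the fits made, and at this size below the fold change required for a call.

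Tsc1, which encodes hamartin, the stabilizing subunit of the TSC complex (chr2:28640993-28691172, plus strand), gave the only age difference among the 10 with an unadjusted p under 0.05 with all mice and no covariate. Young mice had 0.16, 0.29, 0.32 and 0.14, old mice 0.36, 0.58, 0.57, 0.42 and 0.26, and old-OSKM mice 0.09, 0.26, 0.19 and 0.53. All old mice but mouse 5 lay above all young mice. The mean was higher in old than in young mice by 0.21 (SE 0.10), a fold change of 1.16 with a 95% interval of 1.00 to 1.34, with a limma adjusted p = 0.901. As 5.52% of all genes pass that unadjusted threshold in this comparison, the count of 1 in 10 is not set apart from the background. The unadjusted p was no longer under 0.05 with limma's trend or robust option, with the covariate for the run of identifiers, or in 9 of the 13 fits that left out a mouse.

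In old-OSKM mice, Tsc1 was lower than in old mice by -0.17 on the log2 scale (SE 0.10, limma adjusted p = 0.608). Mice 1 to 3 of the group had 0.09, 0.26 and 0.19, and mouse 4, at 0.53, lay among the upper old mice. Without mouse 4 the difference was -0.26 (SE 0.08, limma adjusted p = 0.623), and without mouse 1, the lowest of the group, it was -0.11. The old-OSKM mean differed from the young mean by 0.04 (SE 0.10) with mouse 4 and by -0.05 (SE 0.09) without it. Both comparisons with old mice share those 5 mice, so that their differences are not independent.

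Tsc2 (chr17:24595816-24632676, minus strand) encodes tuberin, the subunit that switches Rheb off. It read 1.94, 1.99, 1.90 and 1.65 in young, 1.98, 1.86, 1.96, 1.95 and 1.92 in old and 1.75, 1.90, 1.89 and 1.52 in old-OSKM mice. Old mice were tightly grouped (SD 0.05), and both other groups held a mouse well below them. The log2 difference of old-OSKM minus old was -0.17 (SE 0.09, limma adjusted p = 0.593). Without old-OSKM mouse 4, the lowest of the 13, it was -0.09 (SE 0.07), and without mouse 2 it was -0.21. The unadjusted p was under 0.05 in 3 of the 13 fits that left out a mouse (young mouse 4, old-OSKM mouse 2 or old-OSKM mouse 3). Exons of Pkd1 on the opposite strand share 7.20% of the exon bases of Tsc2, and such overlaps took 3.41% of those of Deptor, 2.90% of those of Akt1s1 and 0.624% of those of Rptor.

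Rheb (chr5:24802823-24842361, minus strand) differed least of the 10 between old-OSKM and old mice. Young mice had 2.40, 2.31, 2.35 and 2.51, old mice 2.34, 2.33, 2.51, 2.25 and 2.34, and old-OSKM mice 2.32, 2.48, 2.34 and 2.24. The groups covered the same range. Its fold change in old-OSKM against old mice was 0.997 with a 95% interval of 0.901 to 1.10, and in old against young mice 0.975 with an interval of 0.882 to 1.08. An increase beyond 1.10-fold thus lay outside the interval of either comparison. The log2 difference of old-OSKM minus old was -0.0044 (SE 0.07) with all mice and 0.03 (SE 0.07) without old-OSKM mouse 4.

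Ddit4 (chr10:59949675-59951770, minus strand) encodes REDD1, a protein induced by hypoxia, glucocorticoids and other stresses that acts through the TSC complex to inhibit mTORC1. Young mice had 1.53, 1.23, 1.17 and 1.53, old mice 1.21, 1.43, 1.41, 1.30 and 1.23, and old-OSKM mice 1.21, 1.29, 0.86 and 1.16. Old-OSKM mouse 3 was the lowest of the 13, and the groups overlapped. The log2 difference was -0.05 (SE 0.10) in old minus young, -0.18 (SE 0.10, limma adjusted p = 0.608) in old-OSKM minus old, and -0.23 (SE 0.11, limma adjusted p = 0.706) in old-OSKM minus young. The last is a fold change of 0.852 with an interval of 0.720 to 1.01. Both differences of the old-OSKM group rested more on mouse 3, without which they were -0.09 and -0.14, than on mouse 4, without which they were -0.19 and -0.24.

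**Figure D3:**
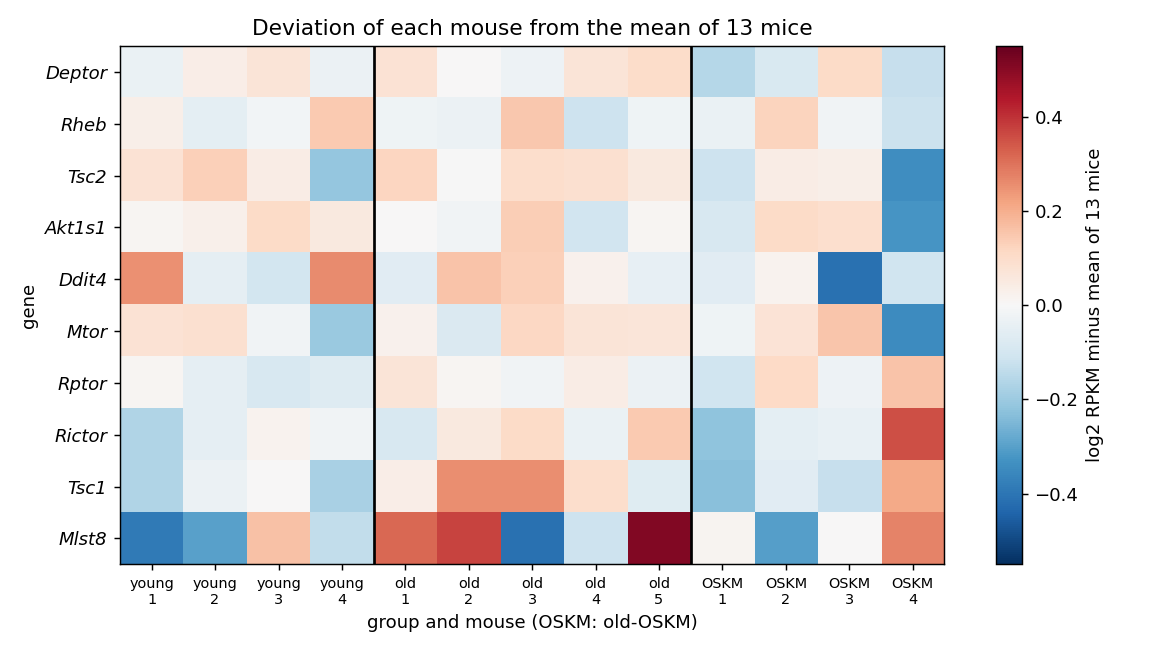
Log2 RPKM of each of the 13 mice (columns, by group) minus the mean of the 13 for the 10 genes (rows); red is above and blue below the mean. The last column, old-OSKM mouse 4, is blue for Tsc2, Akt1s1 and Mtor and red for Rictor, Tsc1 and Mlst8.

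As a group, the 10 genes leaned the way most genes did. In old against young mice 7 of the 10 had a higher mean, with a median log2 difference of 0.06, beside 54.4% of all genes higher. In old-OSKM against old mice 1 of the 10 was higher and 9 were lower, with a median of -0.09, beside 36.9% of all genes higher and a median of -0.04 over all genes. The members that were lower included inhibitors of the pathway (Tsc1, Tsc2, Ddit4, Deptor and Akt1s1) as well as its kinase and subunits (Mtor, Mlst8 and Rictor) and its activator Rheb. In old-OSKM against young mice 4 were higher and 6 lower, beside 38.7% of all genes higher. The comparisons share mice, and their counts are not independent of each other.

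Old-OSKM mouse 4 was the highest of the 13 in Rptor and Rictor and the lowest in Mtor, Akt1s1, Tsc2 and Rheb, that is, extreme in 6 of the 10 genes, close to its share of 60.2% over genes of such levels. Against the mean of the other 3 old-OSKM mice it was lower by -0.41 in Mtor, -0.36 in Akt1s1 and -0.33 in Tsc2, and higher by 0.46 in Rictor and 0.35 in Tsc1. Without it, the difference between old-OSKM and old mice changed sign in Mtor, Akt1s1, Rheb and Rptor, 7 of the 10 genes were lower, and the unadjusted p was under 0.05 in Tsc1 alone, with the lowest adjusted p of the 10 at 0.623. In the same fit 37.2% of all genes were higher and 6.23% had an unadjusted p under 0.05, so that these counts lie near the background. Against young mice, leaving it out turned Mtor from -0.02 to 0.08, Rictor from 0.06 to -0.05 and Tsc1 from 0.04 to -0.05. Its marker sums move with these values, and their part in them was not tested.

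**Figure D4:**
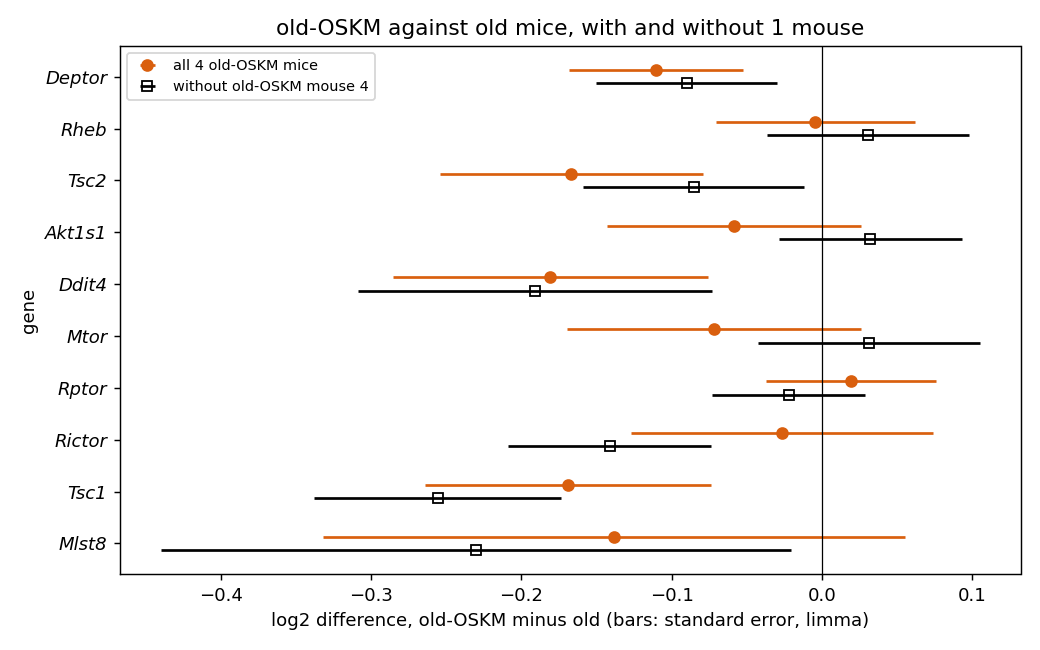
Log2 difference of old-OSKM minus old mice (horizontal axis) for the 10 genes, with bars of 1 standard error from limma, with all 4 old-OSKM mice (filled circles) and without mouse 4 (open squares). Rictor moves from -0.03 to -0.14 and Tsc1 from -0.17 to -0.26, while Mtor moves from -0.07 to 0.03.

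How the 10 genes moved together from mouse to mouse was described by the correlation of their deviations from the group means, over 13 mice and 45 pairs, with no test. In 3 pairs the size of Pearson's r was above 0.7, and in 2 of these it stayed so without old-OSKM mouse 4. Mtor and Tsc2 moved in parallel (r = 0.95, Spearman's rho = 0.86, r = 0.91 without that mouse). Such parallel movement was common for Mtor, as 1653 of 8409 other genes with a mean above 0 had r over 0.7 with it. Without the 2 mice with the Mtor values farthest from the median, r of the values themselves fell from 0.90 to 0.49.

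Deptor and Ddit4, both of which encode inhibitors of mTOR signalling, moved in opposite directions (r = -0.86, rho = -0.70, r = -0.87 without old-OSKM mouse 4). The sign was negative in each of the 3 groups, which are too small for a correlation of their own, and Ddit4 was the gene with the most negative r to Deptor among 8409. In old-OSKM mouse 3, for example, Deptor was the highest of the 13 mice at 3.49 and Ddit4 the lowest at 0.86. Over the values themselves, in which both genes have their lowest mean in old-OSKM mice, r was -0.32 (rho = -0.23). The pair was singled out after its values were seen, and the deviations in Deptor are small, as its SD over the 13 mice was 0.09.

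**Figure D5:**
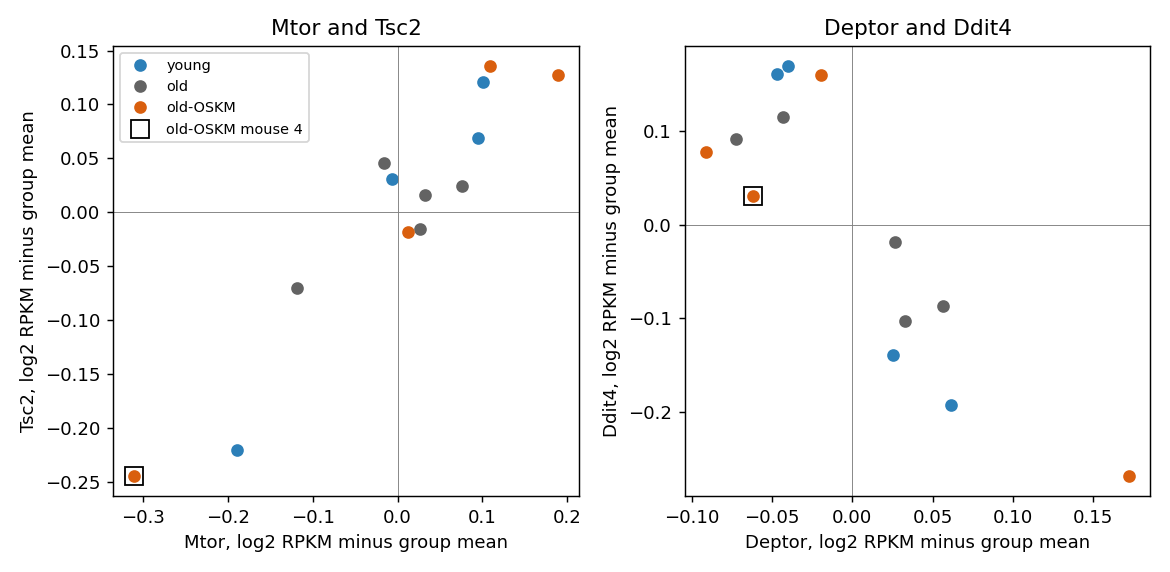
Deviations from the group mean (log2 RPKM, both axes) of Tsc2 against Mtor (left) and of Ddit4 against Deptor (right) in the 13 mice; colours mark the groups and the open square old-OSKM mouse 4. Mtor and Tsc2 rise together, with r = 0.95, and Deptor and Ddit4 run opposite, with r = -0.86.

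The genes whose pattern over the 13 mice was most like that of the 3 most variable of the 10 were found among the genes with a mean above 0. For Tsc1 they were Mif4gd (r = 0.88), Tnpo1 (0.84), Cacna1d (0.84), Flcn (0.82) and Kdm3a (0.82), and each kept an r of at least 0.69 without the 2 mice farthest from the median of Tsc1. Flcn encodes folliculin, which acts on the Rag GTPases that bring mTORC1 to the lysosome. For Ddit4 the genes included Pym1 (0.80), Naf1 (0.75), Cdv3 (0.75) and E2f5 (0.75), whose r without the 2 farthest mice was 0.54, 0.48, 0.44 and 0.42. For Mlst8 they included E2f4 (0.79), Uhmk1 (0.75), Git2 (0.75) and Fbxo11 (0.74). These are from the top of a ranking of 8409 or 8410 genes and describe these mice only.

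Beyond the 10, the rest of the pathway was followed in 7 lists with 110 genes, all of them measured. By the call rule, and at an adjusted p under 0.05 in limma, 0 of the 110 were called in each comparison. At an unadjusted p under 0.05, 3 were higher and 3 lower in old against young mice (5.52% of all genes), 3 higher and 7 lower in old-OSKM against old (8.07%), and 1 higher and 4 lower in old-OSKM against young mice (5.07%). The median log2 difference of the 110 was 0.03, -0.05 and -0.00 in that order. Without old-OSKM mouse 4, 2 were higher and 6 lower in old-OSKM against old mice (6.23% of all genes), and 10 higher and 3 lower in old against young mice (7.70%). Over the 22 alternatives, a gene of the lists was called in 7 in old against young mice (Slc7a11, Chac1 or Cdkn1a), in 4 in old-OSKM against old mice (Castor1 or Atf3) and in 2 in old-OSKM against young mice (Slc7a11, in 1 of them with Ddit4l).

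In old against young mice, the smallest unadjusted p among the lists belonged to Slc7a11, the cystine transporter and a target of ATF4. It read 1.42, 0.79, 0.74 and 0.64 in young and 0.56, 0.26, 0.30, 0.52 and 0.02 in old mice, so that the groups did not overlap, and the log2 difference was -0.56 (SE 0.18, limma adjusted p = 0.614). Chac1, another ATF4 target, which degrades glutathione, differed by -0.71 (SE 0.25), and Cdkn1a, the cell cycle inhibitor p21, by 0.92 (SE 0.35), each with overlapping groups. Of the growth factor and energy inputs, Prkaa2, a catalytic subunit of AMPK, read 1.42, 1.32, 1.40 and 1.11 in young and 1.62, 1.46, 1.62, 1.56 and 1.48 in old mice. These groups did not overlap, and the difference was 0.23 (SE 0.09, limma adjusted p = 0.735). Braf, a kinase of the MAPK cascade, behaved alike, at 0.18 (SE 0.07) without overlap. With each mouse left out, the difference ranged from -0.65 to -0.39 in Slc7a11, -0.91 to -0.57 in Chac1, 0.75 to 1.12 in Cdkn1a, 0.17 to 0.27 in Prkaa2 and 0.12 to 0.21 in Braf. In these 13 fits the unadjusted p was not under 0.05 in 2 for Chac1, 2 for Cdkn1a, 2 for Braf, 1 for Prkaa2 and 0 for Slc7a11. The remaining 8 genes of the ATF4 list, Atf4 itself included, did not reach an unadjusted p under 0.05.

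In old-OSKM against old mice, the amino acid sensing inputs (18 genes, among them the Rag GTPases and the Ragulator and GATOR2 subunits) had a lower mean in 16 of 18, with a median log2 difference of -0.08 (10 of 18 and -0.01 without old-OSKM mouse 4). The growth factor and energy inputs were lower in 17 of 22, with a median of -0.06 (17 of 22 and -0.05 without that mouse). The list of other subunits and assembly factors, which also holds Rhebl1 and Ddit4l, homologues of Rheb and Ddit4, went the other way, with 7 of 9 higher and a median of 0.11 (7 of 9 and 0.08 without it). Lower means were found in 9 of 11 amino acid sensing brakes (8 without it), 15 of 22 substrates and effectors (15 without it) and 9 of 18 genes that share inducers with Ddit4 (11 without it). The ATF4 list turned, from 6 of 10 lower with a median of -0.06 to 4 of 10 lower with a median of 0.07 without that mouse. Among all genes, 36.9% were higher in this comparison, and 37.2% without that mouse. Of the input lists, an unadjusted p under 0.05 was reached by Rragd, which encodes a Rag GTPase, at -0.35 (SE 0.14, limma adjusted p = 0.547), by Prkaa2 at -0.20 (SE 0.09) and by Braf at -0.16 (SE 0.07). Ulk1, the autophagy kinase that mTORC1 restrains, had 1.53, 1.53, 1.53, 1.46 and 1.63 in old and 1.13, 1.45, 1.39 and 1.38 in old-OSKM mice, without overlap, at -0.20 (SE 0.07, limma adjusted p = 0.547). Mapkap1, which encodes the mTORC2 subunit SIN1, differed by -0.17 (SE 0.07). Castor1, the arginine sensor that inhibits mTORC1 through GATOR2, was higher by 1.24 (SE 0.44, limma adjusted p = 0.547) from a low level (-2.63 ± 0.68, n = 5, in old mice), and the immediate early gene Junb by 0.47 (SE 0.19). The size for Castor1 depends on the scale, at 0.86 with a pseudocount of 0.1 and 0.25 with a pseudocount of 1. Without old-OSKM mouse 4 the unadjusted p stayed under 0.05 for Ulk1 (-0.21), and was above it for Castor1 (1.04), Rragd (-0.22), Prkaa2 (-0.13), Braf (-0.13), Junb (0.38) and Mapkap1 (-0.13). Ulk1 rested more on old-OSKM mouse 1, the lowest, without which it was -0.13 with an unadjusted p above 0.05. Of the 13 fits that left out a mouse, the unadjusted p was not under 0.05 in 5 for Mapkap1, 4 for Junb, 4 for Rragd, 1 for Castor1 and 1 for Ulk1.

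In old-OSKM against young mice, Ddit4l, a homologue of Ddit4, was higher by 0.45 (SE 0.14, limma adjusted p = 0.706), with -0.72, -0.66, -1.08 and -0.66 in old-OSKM and -1.22, -1.54, -1.21 and -0.95 in young mice. Its groups overlapped through old-OSKM mouse 3 and young mouse 4. Akt1, the kinase upstream of TSC2 and PRAS40, differed by -0.14 (SE 0.05), Slc7a11 by -0.49 (SE 0.19), Wdr24, which encodes a GATOR2 subunit, by -0.20 (SE 0.08) and Ulk1 by -0.18 (SE 0.08), all with an adjusted p of 0.706. Without old-OSKM mouse 4 the unadjusted p stayed under 0.05 for Ddit4l (0.41), Akt1 (-0.13) and Ulk1 (-0.20), and was above it for Slc7a11 (-0.43) and Wdr24 (-0.17). It was also above it without old-OSKM mouse 1 for Ulk1 (-0.11), Akt1 (-0.10) and Wdr24 (-0.14), without young mouse 1 for Slc7a11 (-0.31), in the fit of these groups alone for Akt1, Ulk1 and Wdr24, and with the covariate for the run of identifiers for Akt1 and Ulk1. Of the 13 fits that left out a mouse, the unadjusted p was not under 0.05 in 4 for Wdr24, 3 for Ulk1, 3 for Slc7a11 and 2 for Akt1. Ddit4l kept it under 0.05 in all 13 fits that left out a mouse, between 0.35 and 0.55, but its size fell to 0.15 with a pseudocount of 1. Ddit4l and Castor1, like Mlst8, were not tested under the filter on the mean. The list of stress and hormone genes that share inducers with Ddit4 (18 genes) mixes glucocorticoid, hypoxia and p53 responsive genes with immediate early genes such as Junb. Of these, 13 of 18 were higher (38.7% of all genes), with a median of 0.20, whereas Ddit4 itself was lower by -0.23. None of the 18 had an unadjusted p under 0.05. Only 8 of the 18 were higher without old-OSKM mouse 4, with a median of -0.05.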

How the data were processed

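RNA sequencing had been performed on rRNA-depleted RNA of 13 pancreata. According to the submitters' processing notes and the study's methods, the authors aligned reads with STAR 2.3.0e to mm10, obtained RPKM of isoforms from Casper, added them up for every Entrez gene, moved to the log2 scale and quantile normalized. The deposited log2 RPKM of 23366 genes were used without a pseudocount or a filter. They contain no counts or read totals, so that the precision due to depth is not known for each library. The correction by total reads that the authors describe in their pre-processing could not be made. Strand use in counting is not given in the sources used here. Quantile normalization forces the sorted values of all mice to be nearly equal (within 0.0116), which can hide a change shared by most genes.

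Group differences were fitted with the limma package, version 3.58.1 (R 4.3.3, eBayes, two-sided, all 13 mice in a single fit, no covariate), with Benjamini-Hochberg adjustment over all genes. The labels give a separate mouse for every library. Gene positions and promoters came from RefSeq on GRCm38.p6, and overlaps from GENCODE exons. The 10 genes, the 7 lists of pathway genes and the 11 lists of cell type markers were chosen with earlier results of these data known. Named in the text are the 10 genes, the 5 genes of the 7 lists with the smallest raw p in each comparison, and the 5 genes most correlated with each of the 3 most variable of the 10, of which some are not reported here. Others are named only as examples of a count. Alternatives were trend and robust eBayes, fits of the 2 groups alone, repeated quantile normalization, median centring, pseudocounts of 1 and 0.1, a filter on the mean (log2 RPKM above 0), a covariate for the run of identifiers, and each mouse left out in turn. The covariate for identifiers was 1 for sample identifiers 641 to 643 (young mice 3 and 4 and old mouse 5). It was 0 for 609 to 621, which hold the other mice, every old-OSKM mouse among them. Plots used matplotlib 3.10.9 under Python 3.11.15.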

Additional observations from a re-analysis of the deposited data

Results flagged for a closer look

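Among the 69 groups of 4 or 5 mice examined for the 10 genes and the 13 other pathway genes named by smallest p, 1 held a mouse far from the rest of its group by Dixon's criterion, where chance gives about 1 in 20. In Ddit4l, a homologue of Ddit4, old-OSKM mouse 3 read -1.08 and the nearest mouse of its group -0.72, a gap of 0.871 of the group's range against a critical value of 0.829. Without this mouse old-OSKM minus young came to 0.55 on the log2 scale, against 0.45 with it. The same mouse was the lowest of the 13 in Ddit4 and the highest in Deptor and Mtor.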

How the results depend on the processing

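None of the 10 genes was called in any comparison under any of the 22 alternatives, and of 657 alternative values 21 had the opposite sign. In old-OSKM minus old, an unadjusted p under 0.05 was reached by Tsc2 in 3 of the 13 fits that left out a mouse, Tsc1 in 2 and Deptor in 1. In old-OSKM minus young it was reached by Ddit4 in 3 of these fits, Rptor in 1 and Deptor in 1. With each mouse left out, the log2 difference of old minus young ranged from -0.11 to 0.0063 in Ddit4, -0.011 to 0.085 in Mtor, -0.076 to 0.0028 in Rheb and -0.012 to 0.10 in Tsc2. That of old-OSKM minus old ranged from -0.11 to 0.032 in Akt1s1, -0.14 to 0.031 in Mtor, -0.050 to 0.035 in Rheb, -0.14 to 0.050 in Rictor and -0.022 to 0.066 in Rptor. That of old-OSKM minus young ranged from -0.083 to 0.083 in Mtor, -0.051 to 0.14 in Rictor and -0.046 to 0.10 in Tsc1. With a covariate for the run of identifiers, Rheb was 0.0022 in old-OSKM minus old and Tsc1 -0.0077 in old-OSKM minus young. The count over all genes depended more on the setting. In old against young, old-OSKM against old and old-OSKM against young mice it was 16, 2 and 8 with a pseudocount of 1, 116, 77 and 76 with a pseudocount of 0.1, and 44, 35 and 19 with the filter on the mean, and it ranged from 175 to 280, 94 to 338 and 121 to 253 with each mouse left out. It moved by over 1.5 times in old-OSKM against old mice without old-OSKM mouse 1 (94), mouse 2 (338) or mouse 3 (284), and in old-OSKM against young mice without mouse 2 (253), and the cause was not tested. The fold change is compressed by a pseudocount and the filter leaves fewer genes to call. Under that filter Mlst8 was not tested.

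Groups of 4 or 5 mice, the lack of a read total for each library and values already quantile normalized limit what can be seen. No paired analysis was possible because the labels give the groups no shared replicate numbers.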
